A study of Homo sapiens with 6 samples.

Results

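The 10 genes described here encode proteins of one signalling chain: the cytokines IL6 and LIF, the receptor chains IL6ST, IL6R, IL11RA, LIFR and OSMR, the kinase JAK1, the transcription factor STAT3 and the inhibitor SOCS3. They were chosen by name, from values of the same comparison that were already known. Their own differences, and whether they passed a threshold, are therefore given as a description and not as a test. All 10 were among the 58302 genes of the deposited count table, each on 1 line, and all 10 were among the 14667 genes with enough reads to be tested.

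RNA was sequenced from 6 samples of hTert 1BR3 cells, forearm fibroblasts immortalized with telomerase. In 3 samples the cells had been transfected with a pool of siRNAs against MCM7, a subunit of the helicase that opens DNA for replication. In the other 3 they had received non-targeting siRNAs. By the study's methods the cells of both groups were then starved of serum for 3 days to induce the primary cilium. How far division had stopped in each group was not tested here.

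Both groups share the cell line, the immortalization, the transfection and the starvation, and no untransfected sample was analysed here. All samples come from 1 line, and the labels do not say whether replicates were separate cultures, so a p-value reflects only how much these samples vary, which may be technical. The knockdown was made with 1 pool and no rescue was sequenced, so depletion of MCM7 and any other action of the pool cannot be told apart. These are RNA levels of whole cultures: fewer cells of a type and less RNA per cell cannot be told apart.

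Cytokines of the IL6 family bind a ligand-specific receptor chain and then signal through IL6ST, also known as gp130, which they share. IL6 and IL11 recruit a pair of IL6ST chains through IL6R and IL11RA. LIF instead joins IL6ST with LIFR, and oncostatin M can join it with OSMR. The receptor-bound kinase JAK1 then phosphorylates STAT3, which enters the nucleus and induces, among others, SOCS3, a protein that binds IL6ST and JAK1 and stops the signal. In fibroblasts the pathway is known for its part in inflammation and matrix turnover, and IL6 can also act through a soluble form of IL6R that is shed from the membrane.

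With MCM7 siRNA, the shared receptor IL6ST and the oncostatin M receptor OSMR had lower RNA levels, by 1.25-fold and 1.28-fold. STAT3 was higher by 1.18-fold and LIFR, the partner of IL6ST in the LIF receptor, was higher by 1.23-fold. IL6 and LIF had higher means, with all samples above the control samples for IL6 and overlapping groups for LIF. SOCS3, whose RNA STAT3 is known to induce, overlapped between the groups.

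The 3′ UTRs of the 10 genes were searched for 1 sequence. The 7-base word shown in capitals below had been associated with lower RNA in an earlier scan of these same data, so it is no independent evidence here. In canonical transcripts of GENCODE 44 (build GRCh38) it occurred once in the 3′ UTR of 3 of the 10 genes, each time in the last exon, and these sites are shown with 10 bases on either side, read 5′ to 3′ along the transcript.
IL6ST: ttattttgttGAGATGAataaaataac
LIFR: cttactatgtGAGATGActactaagca
OSMR: tttattttttGAGATGAaatttcgctc

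The IL6ST site lay at chr5:55937781-55937807 on the minus strand, in exon 17 of 17, with the word at base 3285 of a 3′ UTR of 5987 bases. The LIFR site lay at chr5:38480675-38480701 on the minus strand, in exon 20 of 20, with the word at base 904 of 6927. The OSMR site lay at chr5:38934843-38934869 on the plus strand, in exon 18 of 18, with the word at base 1409 of 2197. The 3 sites lie at different distances from the stop codon.

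The libraries held 13721281 to 23969024 counts with MCM7 siRNA and 18669386 to 21380345 with control siRNA. MCM7 had 3.34 ± 0.167 CPM (counts as a share of the scaled library size) in MCM7 siRNA samples and 29.4 ± 2.0 CPM in control siRNA samples (SD, n = 3 each), a log2 fold change of -3.15 ± 0.10 (SE, edgeR adjusted p = 1.415e-19), which leaves 11.4% of the control level. All 10 fibroblast markers (COL1A1, COL1A2, COL3A1, DCN, LUM, PDGFRA, PDGFRB, THY1, VIM and FAP) were present, with a summed level of 72569 to 75084 CPM with MCM7 siRNA and 68593 to 74337 CPM with control siRNA. COL1A1 and COL1A2 make up most of this sum, and 6 of the 10 markers were called in edgeR: COL3A1, LUM, PDGFRA and PDGFRB rose, with log2 fold changes of 0.36, 0.16, 0.25 and 0.15, and VIM and FAP fell, at -0.27 and -0.35. Their part in the results below was not tested. The summed level of 9 leukocyte markers was 1.59 to 2.01 CPM with MCM7 siRNA and 1.39 to 2.22 CPM with control siRNA, with TYROBP and CD3E at 0. The sums of 6 endothelial, 7 epithelial and 5 smooth muscle and pericyte markers also overlapped between the groups and stayed at or under 42.2 CPM, with the pericyte marker RGS5 called higher (log2 fold change 0.46).

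Of the 10 genes, 4 had an adjusted p under 0.05 in edgeR, against 12.8% of all tested genes. LIFR and STAT3 were the 2 higher ones, where 6.18% of all genes were called higher, and IL6ST and OSMR were the 2 lower ones, where 6.65% were called lower. With the adjusted p under 0.05 in both edgeR and DESeq2, the rule of the study with a newer tool, 3 of the 10 were called, without LIFR, against 8.62% of all genes. The groups did not overlap for 7 of the 10 genes, against 29.6% of all tested genes. Because the genes were chosen from this comparison, nothing can be read from these shares.

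**Figure D1:**
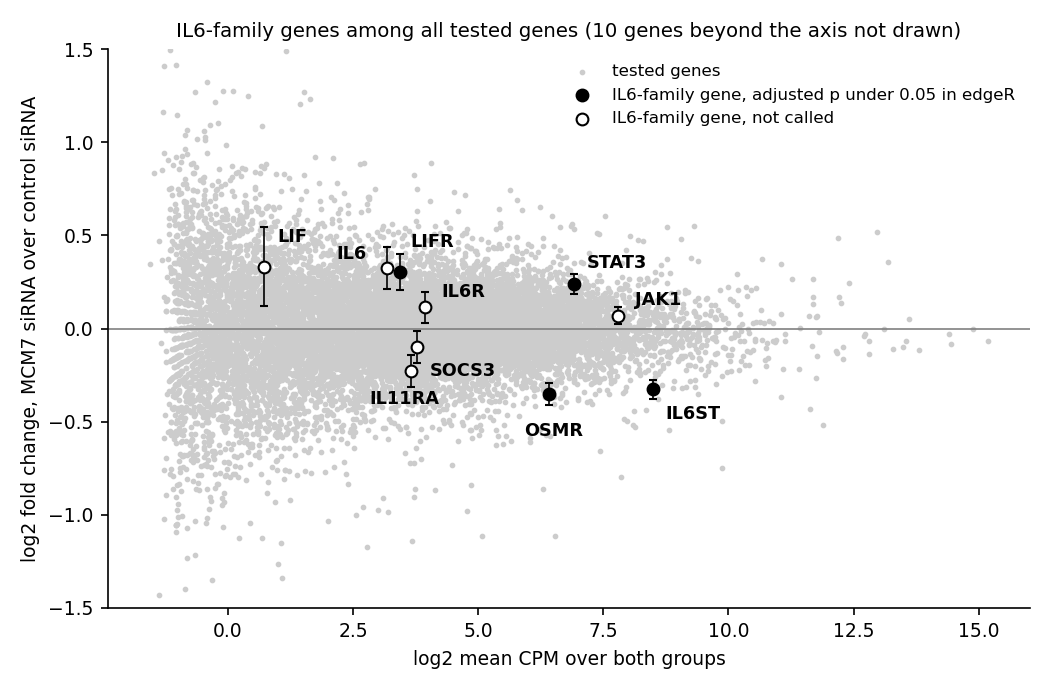
Log2 fold change of MCM7 siRNA over control siRNA (y axis) against the log2 of the mean CPM of both groups (x axis), for all tested genes in grey and the 10 IL6-family genes in black, with bars of 1 SE. OSMR and IL6ST lie below 0 at -0.35 and -0.33 and STAT3 lies above it at 0.24, all 3 in the well-expressed range on the right.

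The 10 fold changes ran in both directions, between -0.35 for OSMR and 0.33 for LIF on the log2 scale. Their median log2 fold change was 0.09, against -0.0028 over all tested genes. Among the called ones none differed by as much as 1.5-fold.

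IL6, the cytokine that gives the family its name, is encoded at chr7:22725884-22732002. It had 8.998, 9.014 and 11.92 CPM in MCM7 siRNA samples, against 7.721, 7.975 and 8.501 CPM in control siRNA samples, from 123 to 285 reads per library. All MCM7 siRNA samples lay above all control samples, but replicate 3 stood well above the other two. The log2 fold change was 0.33 ± 0.11 (SE), not called in edgeR, and without MCM7 siRNA replicate 3 it was 0.16.

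LIF, a related cytokine that signals through LIFR and IL6ST, is encoded at chr22:30240453-30246759. It had 1.54, 1.96 and 2.01 CPM in MCM7 siRNA samples, against 1.45, 1.40 and 1.61 CPM in control siRNA samples. With only 21 to 48 reads per library, 1 MCM7 siRNA sample fell within the range of the control samples. Its log2 fold change of 0.33 ± 0.21 (SE) was as large as that of IL6 but with a larger error, and was not called.

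IL6ST, the shared signalling chain, was the most abundant of the receptors and lies at chr5:55935095-55995022. It had 332, 332 and 291 CPM in MCM7 siRNA samples, against 407, 409 and 381 CPM in control siRNA samples. Every MCM7 siRNA sample was lower than every control sample, and within each group replicate 3 was the lowest. The means were 318 ± 23.5 CPM with MCM7 siRNA and 399 ± 15.99 CPM with control siRNA (SD, n = 3 each), a log2 fold change of -0.33 ± 0.05 (SE). The pseudogene IL6STP1 held 115 reads over all libraries, so few reads were assigned to this copy.

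Of the chains that bind one ligand, IL6R (chr1:154405193-154469450) binds IL6. It had 15.6, 15.3 and 16.8 CPM in MCM7 siRNA samples, against 14.8, 15.1 and 14.4 CPM in control siRNA samples. The groups were separated by a small gap, and the log2 fold change of 0.11 ± 0.08 (SE) was not called. The counts pool the membrane form with the spliced soluble form, so a shift between the forms would not be seen.

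IL11RA (chr9:34652162-34661902) binds IL11. It had 11.92, 11.32 and 11.71 CPM in MCM7 siRNA samples, against 13.83, 13.01 and 13.98 CPM in control siRNA samples. All MCM7 siRNA samples were lower, with a log2 fold change of -0.23 ± 0.09 (SE) that was not called. A second annotated gene overlaps IL11RA on the same strand, so reads in the shared stretch could be lost from its count.

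LIFR and OSMR are the alternative partners of IL6ST and their genes are neighbours on chromosome 5, 237.5 kb apart and on opposite strands. LIFR (chr5:38474668-38608354, minus strand) had 12.3, 12.5 and 11.0 CPM in MCM7 siRNA samples, against 8.95, 10.2 and 9.63 CPM in control siRNA samples. OSMR (chr5:38845858-38945596, plus strand) had 74.0, 76.3 and 74.8 CPM in MCM7 siRNA samples, against 85.3, 99.0 and 103 CPM in control siRNA samples. The neighbours thus differed in opposite directions, and in neither gene did the groups overlap.

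The log2 fold change was 0.30 ± 0.10 for LIFR and -0.35 ± 0.06 for OSMR (SE). LIFR was the less stable of the pair: it was called in 8 of 13 alternative analyses (another scaling, filter, test or depth, or 1 library left out), and the call was lost in DESeq2 and when MCM7 siRNA replicate 1 or 2 or control siRNA replicate 1 or 3 was left out (log2 fold change 0.26 to 0.31 in these analyses). In OSMR the spread was on the control side, where replicate 1 was closest to the MCM7 siRNA samples. OSMR was called in all 13 alternative analyses, with log2 fold changes between -0.43 and -0.30. As both genes were chosen from this comparison, such calls show only how far the processing matters.

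JAK1, the kinase bound to the IL6-family receptors, lies at chr1:64833223-65067754. It had 228, 236 and 217 CPM in MCM7 siRNA samples, against 212, 219 and 218 CPM in control siRNA samples. The groups overlapped, and the log2 fold change of 0.07 ± 0.05 (SE) was the smallest of the 10. Several small genes lie within JAK1 on its strand, and reads shared with them could be lost.

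STAT3, the transcription factor at the end of the chain, lies at chr17:42313324-42388540. It had 128, 123 and 140 CPM in MCM7 siRNA samples, against 110, 107 and 114 CPM in control siRNA samples. All MCM7 siRNA samples were higher, with replicate 3 the highest of them. The means were 130 ± 8.30 CPM with MCM7 siRNA and 111 ± 3.37 CPM with control siRNA (SD, n = 3 each), a log2 fold change of 0.24 ± 0.05 (SE).

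SOCS3, the feedback inhibitor induced by STAT3, lies at chr17:78356778-78360077. It had 14.3, 12.4 and 13.4 CPM in MCM7 siRNA samples, against 13.5, 14.5 and 14.8 CPM in control siRNA samples. The groups overlapped, and the log2 fold change of -0.10 ± 0.09 (SE) pointed the other way from that of STAT3 without being called.

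**Figure D2:**
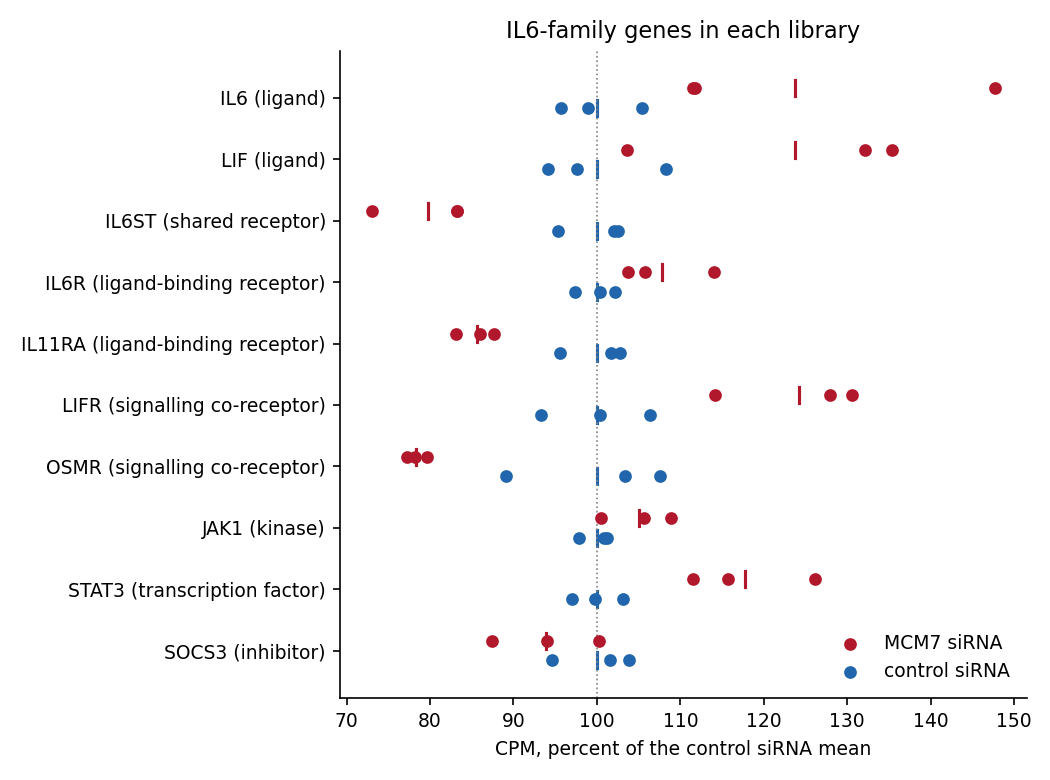
CPM of each IL6-family gene in each library, as a percent of the control siRNA mean of that gene (x axis), with MCM7 siRNA samples above control siRNA samples in each row, and vertical ticks at the group means. IL6ST, IL11RA and OSMR lie wholly below their control samples and IL6, IL6R, LIFR and STAT3 wholly above, while LIF, JAK1 and SOCS3 overlap.

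Levels of different genes were compared per length, in RPKM (reads scaled by gene length and by library size). With MCM7 siRNA the order was JAK1 (36.1 ± 1.76 RPKM), IL6ST (34.4 ± 2.70), STAT3 (14.8 ± 0.849), OSMR (10.5 ± 0.269), SOCS3 (4.90 ± 0.290), IL6 (4.83 ± 0.792), IL11RA (2.74 ± 0.0461), IL6R (2.47 ± 0.112), LIFR (1.01 ± 0.0784) and LIF (0.464 ± 0.0677), as RPKM with SD over 3 samples. In this group JAK1 overlapped with IL6ST and SOCS3 with IL6. All other neighbours in the order were separated in every sample.

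With control siRNA the RPKM order was IL6ST (42.7 ± 1.88 RPKM), JAK1 (34.1 ± 0.529), OSMR (13.3 ± 1.24), STAT3 (12.5 ± 0.347), SOCS3 (5.18 ± 0.231), IL6 (3.88 ± 0.174), IL11RA (3.17 ± 0.119), IL6R (2.27 ± 0.0617), LIFR (0.805 ± 0.0518) and LIF (0.372 ± 0.0261), with SD over 3 samples. Here only OSMR and STAT3 overlapped. JAK1 and IL6ST, and STAT3 and OSMR, thus stood in the reverse order by mean in the 2 groups.

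**Figure D3:**
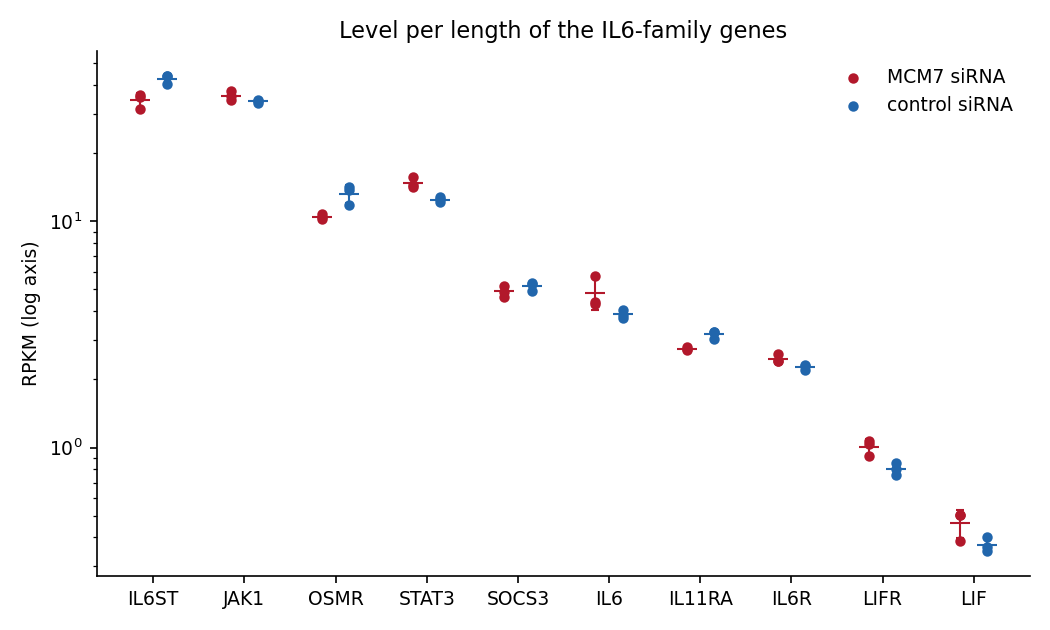
RPKM on a log axis (y) of each IL6-family gene (x), ordered by the control mean, with MCM7 siRNA left of control siRNA. Points are libraries, and horizontal ticks with bars are means with SD (n = 3 each). Levels run from about 0.4 RPKM for LIF to about 40 RPKM for IL6ST and JAK1.

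Ratios within a library do not depend on how libraries are scaled to each other, and are given here as a description. They rest on the same values from which the genes were chosen, so their differences between the groups are no further evidence. The ratio of OSMR to LIFR, in RPKM, was 9.95, 10.1 and 11.3 in MCM7 siRNA samples, against 15.8, 16 and 17.7 in control siRNA samples. OSMR RNA was therefore in excess over LIFR in every sample, and by less in every MCM7 siRNA sample.

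The RPKM ratio of STAT3 to IL6ST was 0.407, 0.392 and 0.505 in MCM7 siRNA samples, against 0.286, 0.277 and 0.316 in control siRNA samples. That of STAT3 to its feedback inhibitor SOCS3 was 2.79, 3.08 and 3.24 with MCM7 siRNA and 2.55, 2.31 and 2.40 with control siRNA. In both ratios all MCM7 siRNA samples were higher.

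The summed RPKM of the 5 receptor chains was 52.1, 53.2 and 48.0 in MCM7 siRNA samples, against 61.9, 63.8 and 61.0 in control siRNA samples. IL6ST made up 67.2 ± 1.73% of this sum with MCM7 siRNA and 68.6 ± 2.11% with control siRNA (SD, n = 3 each), and these shares overlapped. The ratio of IL6ST to IL6R was 13.97 ± 1.68 with MCM7 siRNA and 18.8 ± 0.356 with control siRNA (SD, n = 3 each), so the shared chain remained far above the IL6-binding chain in both groups.

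Other genes of the pathway were taken from lists of textbook members, 93 genes in all, none of them among the 10. The lists were made with earlier results of these data known. Of these, 65 had enough reads to be tested: 4 rose, 6 fell and 55 did not pass the threshold (edgeR adjusted p under 0.05). These 10 calls among 65 genes stand beside 12.8% of all tested genes called (6.18% higher and 6.65% lower), a similar share, and nothing particular to the lists can be read from their counts. The median log2 fold change of the 65 was 0.07.

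Among 12 further ligands and receptors of the family, 6 were tested. None rose and 2 fell, beside 12.8% of all tested genes called, and the median log2 fold change of the 6 was -0.16. IL31RA, the chain that joins OSMR to bind IL31, lies 12.2 kb from IL6ST on the opposite strand. It had 6, 5 and 6 reads in MCM7 siRNA samples, against 16, 18 and 13 reads in control siRNA samples.

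IL31RA was lower by 1.40 ± 0.38 on the log2 scale (SE, edgeR adjusted p = 0.0138). It had enough reads to be tested only through the control siRNA samples. Only a lower level could therefore have been called, and the adjusted p is no support for a fall. Once all libraries were thinned to the smallest, IL31RA was not tested. Its call rests on few reads: DESeq2 gave no adjusted p, and the edgeR adjusted p was 0.06218 without MCM7 siRNA replicate 2, 0.05567 without MCM7 siRNA replicate 3, 0.06116 without control siRNA replicate 1 and 0.07338 without control siRNA replicate 2. A ligand of OSMR, OSM, had 0 reads in all 6 libraries, as did IL27, IL31 and CNTFR. In these libraries 3 counts would correspond to 0.125 to 0.219 CPM. This limit covers counting error only.

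Of 9 other JAK kinases and STAT factors, 8 were tested. None rose and 1 fell (median log2 fold change 0.04), beside 12.8% of all tested genes called. STAT5A had 19.9, 19.7 and 17.6 CPM in MCM7 siRNA samples, against 22.3, 25.6 and 23.0 CPM in control siRNA samples. Its log2 fold change was -0.32 ± 0.08 (SE, edgeR adjusted p = 0.005676, and 0.06591 without control siRNA replicate 2). STAT5A (chr17:42287547-42311943) is the direct neighbour of STAT3, 1.4 kb away on the opposite strand, and was lower where STAT3 was higher.

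Of 15 brakes and phosphatases of the pathway, 14 were tested and 0 passed the threshold in edgeR or in DESeq2 (median log2 fold change 0.07). At an unadjusted p under 0.05 edgeR gave 3 of them, SOCS4, SOCS7 and PTPN11, with log2 fold changes of 0.21 ± 0.10, 0.20 ± 0.09 and 0.11 ± 0.05 (SE), and it gave 26.1% of all tested genes.

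The 5 genes of IL6R shedding were all tested, and 2 rose and 1 fell. ADAM17, the protease that releases the soluble form of IL6R on stimulation, had 43.4, 42.7 and 42.0 CPM in MCM7 siRNA samples, against 30.5, 30.0 and 32.1 CPM in control siRNA samples, a 1.38-fold rise (log2 fold change 0.47 ± 0.06, SE, edgeR adjusted p = 3.764e-06). ADAM10, a related protease, had 247, 254 and 216 CPM in MCM7 siRNA samples, against 207, 202 and 194 CPM in control siRNA samples (log2 fold change 0.25 ± 0.05, SE, edgeR adjusted p = 0.001894). In both, every MCM7 siRNA sample was above every control sample.

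TIMP3, a secreted inhibitor of both proteases, had 1648, 1553 and 1586 CPM in MCM7 siRNA samples, against 1868, 1801 and 1838 CPM in control siRNA samples. It fell by 0.20 ± 0.05 on the log2 scale (SE, edgeR adjusted p = 0.003928). At the RNA level both proteases were higher and their inhibitor lower, and these 3 calls held in all 13 alternative analyses. Those analyses reuse the same 6 libraries, and the list was made with earlier results of these data known. The calls are therefore no independent evidence. The other 2 genes of the list, RHBDF1 and RHBDF2, were not called, with log2 fold changes of 0.07 ± 0.06 and 0.18 ± 0.17 (SE). These 3 calls among 5 genes stand beside 12.8% of all tested genes. The median log2 fold change of the 5 was 0.18, and shedding itself was not measured.

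Of 32 genes known as targets of STAT3, 20 were tested. None rose and 1 fell, beside 12.8% of all tested genes called, and the median log2 fold change was -0.03. TIMP1, a secreted inhibitor of matrix proteases, had 1275, 1167 and 1347 CPM in MCM7 siRNA samples, against 1498, 1386 and 1460 CPM in control siRNA samples. Its log2 fold change was -0.20 ± 0.05 (SE, edgeR adjusted p = 0.01081), with 0.05877 without MCM7 siRNA replicate 2, 0.07143 without control siRNA replicate 1 and 0.06174 without control siRNA replicate 3. The other 12 targets, mostly liver acute-phase genes such as CRP and SAA1, had at most 1 read in any library.

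Of 20 genes induced by NF-kappaB, which can also induce IL6, 12 were tested. Among these 2 rose and 1 fell, beside 12.8% of all tested genes called. The median log2 fold change was 0.24, against -0.0028 over all tested genes. BIRC3, an inhibitor of apoptosis, had 6.07, 5.24 and 6.02 CPM in MCM7 siRNA samples, against 3.65, 3.74 and 3.68 CPM in control siRNA samples (log2 fold change 0.64 ± 0.13, SE, edgeR adjusted p = 0.001179). VCAM1, an adhesion molecule, had 2.05, 1.57 and 1.63 CPM in MCM7 siRNA samples, against 3.06, 3.24 and 2.46 CPM in control siRNA samples. It fell by 0.76 ± 0.19 on the log2 scale (SE, edgeR adjusted p = 0.007017, but 0.05302 without control siRNA replicate 2 and 0.06111 in DESeq2).

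NFKBIZ, a nuclear cofactor that helps NF-kappaB to induce IL6, had 2.63, 3.14 and 3.39 CPM in MCM7 siRNA samples, against 2.52, 1.69 and 2.03 CPM in control siRNA samples (log2 fold change 0.58 ± 0.18, SE, edgeR adjusted p = 0.03336). Significance was lost in DESeq2 (adjusted p = 0.177). In edgeR it was lost without MCM7 siRNA replicate 2 or 3 (adjusted p = 0.0672 and 0.1112) and without control siRNA replicate 2 or 3 (adjusted p = 0.1749 and 0.1099), and after all libraries were thinned to the smallest (adjusted p = 0.1348). NXPE3 overlaps NFKBIZ on the same strand, which makes its counts uncertain. The 9 other tested genes of this list did not pass the threshold. The chemokines CXCL8 and CCL2 had log2 fold changes of 0.55 ± 0.21 and 0.34 ± 0.13 (SE). CXCL8 was at only 2.27 CPM with MCM7 siRNA and 1.55 CPM with control siRNA. CXCL6, PTGS2, CXCL1, TNFAIP3, ICAM1 and NFKBIA had log2 fold changes of 0.28, 0.27, 0.22, 0.10, 0.07 and 0.07. SOD2 pointed the other way, at -0.12 ± 0.05 (SE).

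**Figure D4:**
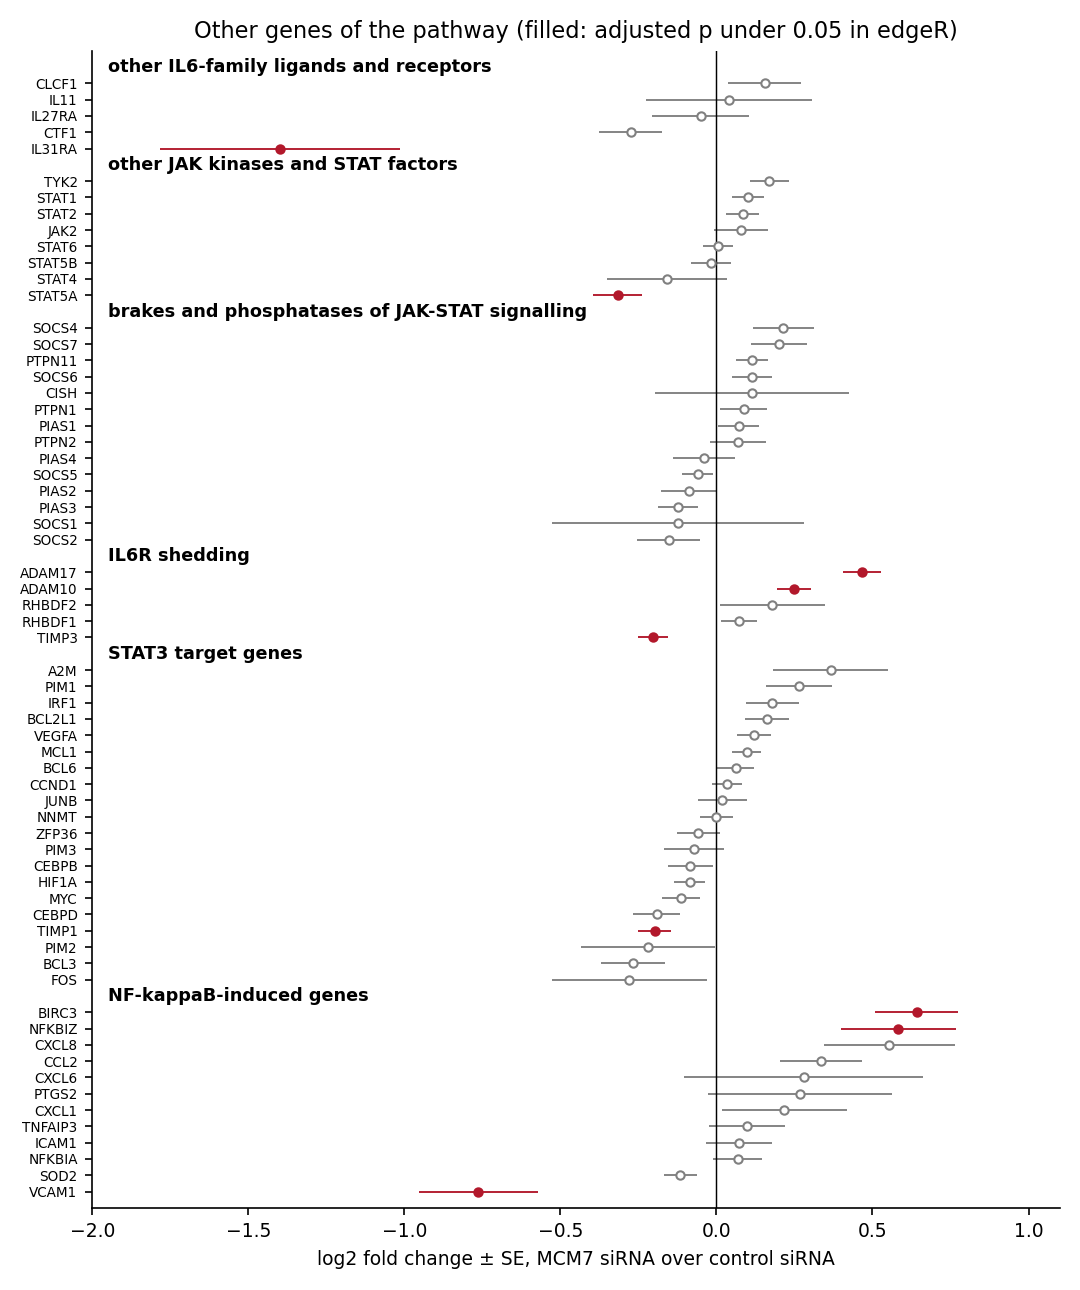
Log2 fold change with SE (x axis) of 64 tested pathway genes outside the 10, grouped by list, with genes of an edgeR adjusted p under 0.05 filled in red. ADAM17 and ADAM10 lie right of 0 and TIMP3 left of it, whereas none of the 14 brakes is filled.

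The 7-base word was then set beside the fold changes. It had been picked in an earlier scan of these same data for its association with lower RNA. Higher shares among genes called lower, and lower medians in genes with the word, are expected from that choice. They are no independent evidence. IL6ST and OSMR, which were lower, and LIFR, which was higher, carry 1 site each. IL11RA, which had lower values, carries none. These genes were chosen from this same comparison, so nothing about the word can be read from their directions. Over 11904 tested genes with a 3′ UTR of at least 50 bases, 22% of genes called lower carried the word, 15% of genes called higher and 14.4% of genes not called. These sets differ in 3′ UTR length, with medians of 940, 2264 and 1374 bases.

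In 4 equal groups of genes by 3′ UTR length, from short to long, the median log2 fold change was -0.17, -0.08, -0.02 and 0.01 in genes with the word, and -0.05, -0.01, 0.03 and 0.04 in genes without it. OSMR falls in the group of 1408 to 2855 bases, at -0.35, and IL6ST and LIFR in that of 2857 to 32870 bases, at -0.33 and 0.30. All 3 lie outside the middle 50% of genes with the word in their length group. The sequences of the siRNAs are not given in the sources used here, and the part of the word in these differences was not tested.

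**Figure D5:**
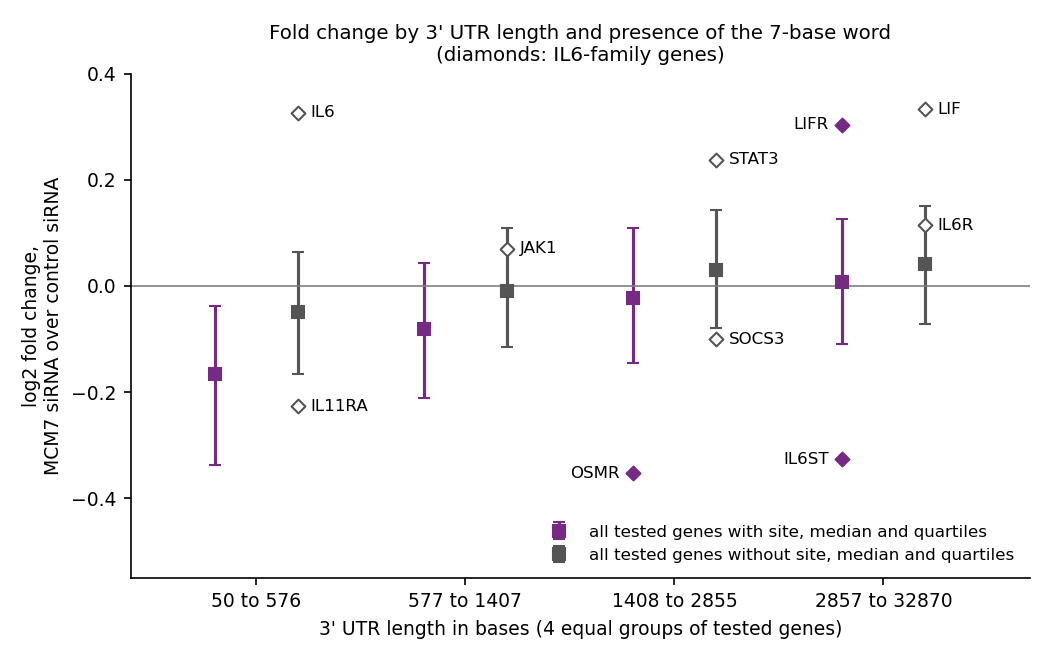
Median log2 fold change with quartiles (y axis) of tested genes with and without the 7-base word, by group of 3′ UTR length in bases (x axis), with the IL6-family genes as diamonds, filled where the gene carries the word. IL6ST and OSMR lie below and LIFR above the quartiles of genes with the word. The word was chosen from these same data, so lower medians with it are no independent evidence.

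The genes nearest in pattern to STAT3 and to IL6ST were found by the mean absolute difference of log2 CPM, centred on each gene's mean, over the 6 libraries among 8231 genes of at least 10 CPM. Nearest to STAT3 were MAPKBP1 (0.0179), FUT8 (0.02), ADIPOR1 (0.0216), MGAT4B (0.0231) and BRPF3 (0.0242). Nearest to IL6ST were WDR6 (0.0284), MAN1A1 (0.0298), TOP1MT (0.0351), CD99L2 (0.0351) and MSC (0.0364). None of the IL6-family or pathway genes was among them. With only 5 genes taken for each out of 8231, their absence says little. Genes under 10 CPM, such as IL6 and LIF, were not compared.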

How the data were processed

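The study's methods describe stranded libraries of poly(A)+ RNA, read from 1 end, with only uniquely mapping reads on annotated loci kept and counted by strand. Per the submitters' processing notes, reads were extracted with bcl2fastq (1.8.4), and TopHat2 (2.1.0), featureCounts (1.5.0) and build GRCh38 were used. The authors deposited raw counts per gene, and RPM and RPKM computed from them. The RPM values deposited by the authors are counts scaled to the reads assigned to genes, and the RPKM values deposited by the authors divide these by 1 length per gene. RPKM served only to compare levels between genes.

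Counts were filtered with filterByExpr and scaled with TMM factors (0.9914 to 1.016), which also scale the CPM values. The main test was edgeR's quasi-likelihood F test (version 4.0.16, R 4.3.3), two-sided, with Benjamini-Hochberg adjustment over all 14667 tested genes. At least 99.89% of each library's counts lay in these genes. Alternatives within edgeR were RLE size factors, library size only, no filter on low counts and a block for the replicate number. Also within edgeR, every library was thinned to the smallest total, and each library was left out in turn. Other alternatives were DESeq2 1.42.0 with its own size factors, calls in both tools, and limma 3.58.1 on log2(RPM + 0.5). DESeq2 gave no adjusted p for 2812 tested genes, which stayed missing.

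The text names MCM7, the 10 genes, each pathway gene called (1 is not reported here), the 5 genes nearest in pattern to STAT3 and to IL6ST, and fibroblast markers. Other genes named were chosen after their values were seen. The genes, the lists and the 7-base word were chosen with earlier results of these data known. Positions and 3′ UTRs are those of GENCODE 44.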

Additional observations from a re-analysis of the deposited data

How the results depend on the processing

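All 10 IL6-family genes kept the sign of their log2 fold change in all 13 alternative analyses that gave one. The count of called genes among them was 4, and it was 3 in DESeq2 and in both tools, 5 with library size only and without the filter on low counts, and 3 to 4 when each library was left out. IL6ST, OSMR and STAT3 were called in all 13, with log2 fold changes of -0.36 to -0.27, -0.43 to -0.30 and 0.18 to 0.28. LIFR was called in 8 (0.26 to 0.37) and IL6 in 5 (0.16 to 0.41), and the other 5 genes in none. These analyses reuse the comparison from which the genes were chosen, so the counts show only how calls depend on the processing. Of the pathway genes 10 were called, 7 in DESeq2 and in both tools, 8 after thinning, and 6 (without control siRNA replicate 2) to 14 (without MCM7 siRNA replicate 3) when each library was left out. Among all tested genes, 1881 were called, 1284 in DESeq2 and 1265 in both tools, and 1151 (without control siRNA replicate 3) to 2265 (without MCM7 siRNA replicate 3) when each library was left out. The cause of these shifts was not tested.

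With the replicate number as a block 5 of the 10 genes (IL6 added), 10 pathway genes and 1961 genes in all were called. Samples with the same number did not deviate together (correlations of -0.0122, -0.0259 and -0.0173), so the numbers were not taken to pair the samples. Depth limits LIF, with 21 to 48 reads per library, IL31RA, and NFKBIZ, whose call was lost after thinning.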
